A study of Homo sapiens with 8 samples.

Results

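Expression of 9 genes of the retinoid pathway was examined in the human melanoma line A375 with and without serum. The genes were listed by name for their place in the pathway, with earlier results of these data known, and were the retinoic acid receptors *RARA*, *RARB* and *RARG*, the retinoid X receptors *RXRA* and *RXRB*, the enzymes *DHRS3*, *CYP26A1* and *CYP26B1*, and the binding protein *CRABP2*. They are 9 of the 58051 genes in the count tables, and all 9 had enough counts to be tested. A375 is an established human melanoma cell line. The study grew 4 lines derived from it by single-cell cloning, labelled WT1 to WT4, in DMEM medium that either contained 10% fetal bovine serum (FBS) or lacked it, for 12 h before total RNA was extracted. Each line gave 1 library per condition, 8 libraries in all, so the 4 replicates of a condition are 4 clones of 1 parental line. The study used this comparison to look for secreted factors whose loss could account for the behavior of melanoma cells upon serum withdrawal. Retinoic acid was among the candidates it tested for preventing adherens junctions without serum. The paper reports an effect for IGF1 and a weaker effect for insulin, and for no other candidate.

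Retinoic acid is made from vitamin A, or retinol, in steps that first oxidize retinol to retinaldehyde and then retinaldehyde to the acid. DHRS3 runs the first step backwards, reducing retinaldehyde to retinol, and the CYP26 enzymes degrade retinoic acid. CRABP2 carries the acid to the nucleus, where heterodimers of a RAR and an RXR bind DNA at repeated hexamers and switch from recruiting corepressors to recruiting coactivators. *RARB*, *CYP26A1* and *DHRS3* are classic genes induced by the acid, so that the pathway feeds back on its own ligand. Serum contains retinol, among many other factors.

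The libraries held between 29759279 and 73341551 counts on genes. The share of reads aligned to several places was 22.7% and 16.8% in the serum libraries of WT1 and WT2 and between 5.73% and 10.1% in the other 6. The value of each of the 9 genes is therefore given below also without these 2 libraries, an alternative chosen after seeing the data. That fit has no block and sets the serum libraries of WT3 and WT4 against the serum-free libraries of all 4 lines. Differences between lines can therefore move its values. Among the markers of melanocytic cells, *MITF* (30.1 to 44.2 CPM, counts scaled to library size) and *S100B* (13.6 to 34.9 CPM) were present in every library. The 8 melanocytic markers summed to between 54.8 and 67.8 CPM with serum and to between 51.0 and 69.3 CPM without, and 1 of them, *MITF*, was called lower. *TYR* stayed at or below 0.0523 CPM, and *SOX10*, which lies within *POLR2F*, was listed at 0 in all 8. The summed level of 4 leukocyte markers was between 0.274 and 0.775 CPM with serum and between 0.314 and 0.853 CPM without. The 5 fibroblast markers summed to between 6.31 and 10.2 CPM with serum and to between 7.96 and 10.3 CPM without, with 1 of them, *PDGFRA*, higher without serum. The 4 epithelial markers summed to between 14.9 and 21.7 CPM with serum and between 11.7 and 21.0 CPM without, nearly all of it *KRT14*, while *CDH1* stayed at or below 0.0948 CPM. The part of such cells in the results below was not tested, and in bulk RNA fewer cells of a type and less RNA per cell cannot be told apart.

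Of the 9 genes, 6 were higher without serum and 0 were lower. *DHRS3* and *CYP26A1* rose the most, by 3.73-fold and 3.66-fold, and *RARB* and *CYP26B1* followed at 2.22-fold and 2.02-fold. *RARG* and *RXRB* rose by 1.49-fold and 1.51-fold. *CYP26A1* had only 2 to 6 counts per library with serum and passed the filter on low counts through the serum-free libraries. It therefore adds no support to the number called, and 5 genes were called when each library needed at least 10 counts. *RARA*, *RXRA* and *CRABP2* did not pass the test. The test was edgeR's quasi-likelihood test of serum-free against serum, with p-values adjusted by Benjamini and Hochberg's method over 17671 genes and a threshold of 0.05, and in it 11.1% of all genes were called higher and 14.0% lower. Upper-quartile in place of TMM scaling moved that split from 1957 higher and 2477 lower to 2508 and 1843, and left the same number of the 9 genes, 6, called higher. The median log2 fold change was 0.60 over the 9 genes and 0.03 over all tested genes. A fit with a replicate block, in which each line is compared with itself, called *RXRA* too and so had 7 of 9 higher and 0 lower, beside 23.2% of all genes higher and 22.4% lower.

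**Figure D1:**
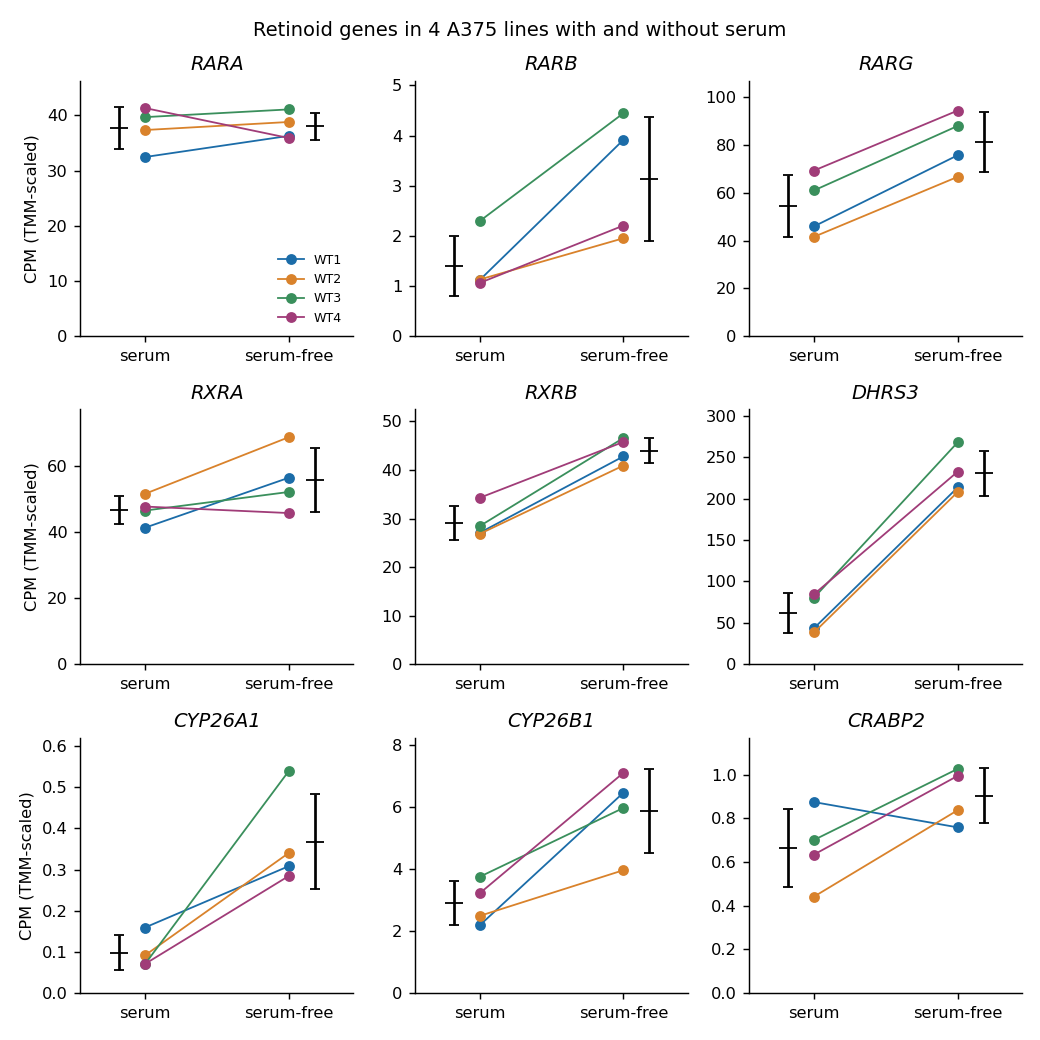
CPM, scaled with edgeR's TMM factors, of each of the 9 genes (y axis, from 0) with serum and without it, with 1 colored line per A375 line and the mean ± SD of 4 lines beside each condition. All 4 lines rise for *RARB*, *RARG*, *RXRB*, *DHRS3*, *CYP26A1* and *CYP26B1*, while WT4 falls for *RARA* and *RXRA* and WT1 falls for *CRABP2*.

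*DHRS3* (ENSG00000162496, GRCh38 chr1:12567910-12618210), the retinaldehyde reductase, had the largest change in the fit without a block, close to that of the low-count *CYP26A1*. *CYP26A1* was ahead in some other fits, as without line WT1 (log2 fold changes of 2.24 against 1.80) or its serum library (2.17 against 1.76). The levels of *DHRS3* with serum were 43.7, 38.6, 80.5 and 84.6 CPM for WT1 to WT4. Without serum they were 213.5, 208.0, 267.9 and 232.5 CPM in the same order. The serum libraries fell into a lower pair, WT1 and WT2, and a higher pair, WT3 and WT4, and every serum-free library was above all 4. The log2 fold change was 1.90 ± 0.27 (SE, edgeR's adjusted p = 0.00302). The ratio within a line, with its 95% counting interval, was 4.89 (4.63 to 5.15) for WT1, 5.39 (5.17 to 5.62) for WT2, 3.33 (3.20 to 3.46) for WT3 and 2.75 (2.63 to 2.87) for WT4. The intervals of the lines do not touch one another, but with 1 library per line and condition the difference between lines in this response was not tested. Without the serum libraries of WT1 and WT2 the log2 fold change was 1.48 (edgeR's adjusted p = 0.00950).

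The CYP26 enzymes degrade retinoic acid and were both higher without serum. *CYP26B1* (ENSG00000003137, chr2:72129238-72147862) was at 2.17, 2.48, 3.74 and 3.21 CPM in WT1 to WT4 with serum and at 6.45, 3.95, 5.96 and 7.09 CPM without. The lowest serum-free library, WT2, was just above the highest serum library, WT3, so the conditions did not overlap. Its change was 1.02 ± 0.23 on the log2 scale (SE, edgeR's adjusted p = 0.0122). In the fits without a block, the call was lost without both libraries of WT1, where the change was 0.85 (edgeR's adjusted p = 0.0874). It was also lost without the serum libraries of WT1 and WT2, where the change was 0.75 (0.127). With the block it was kept with each line left out in turn, at edgeR's adjusted p of up to 0.00196.

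*CYP26A1* (ENSG00000095596, chr10:93073475-93077885) was the only low-count gene of the list, with fewer than 10 counts in at least 1 library. It had 6, 6, 3 and 2 counts in WT1 to WT4 with serum and 13, 26, 21 and 16 counts without. Each serum-free count was above every serum count, and the same held for CPM, which ran from 0.0701 to 0.159 with serum and from 0.284 to 0.539 without. Its change was 1.87 ± 0.43 on the log2 scale (SE, edgeR's adjusted p = 0.0122). The gene passed the filter on low counts only through the serum-free libraries, where it is high, and a filter of at least 10 counts in every library removed it, so its place among the 6 genes called is a description and no support for their number. At these counts a single line says little about the size of the change. The ratio was 1.94 for WT1 (95% counting interval 0.687 to 6.22), 3.73 for WT2 (1.5 to 11.1), 7.70 for WT3 (2.30 to 40.3) and 4.04 for WT4 (0.949 to 36.2). The call was lost without both libraries of WT2, where the change was 1.86 (edgeR's adjusted p = 0.0698), and without both of WT3, where it was 1.51 (0.0828), or 1.55 with the block (0.0576). It was also lost without the serum libraries of WT1 and WT2, where the change was 2.33 (edgeR's adjusted p = 0.0674). The third enzyme of the family, *CYP26C1*, had 3 to 7 counts with serum and 6 to 24 without and was not tested.

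**Figure D2:**
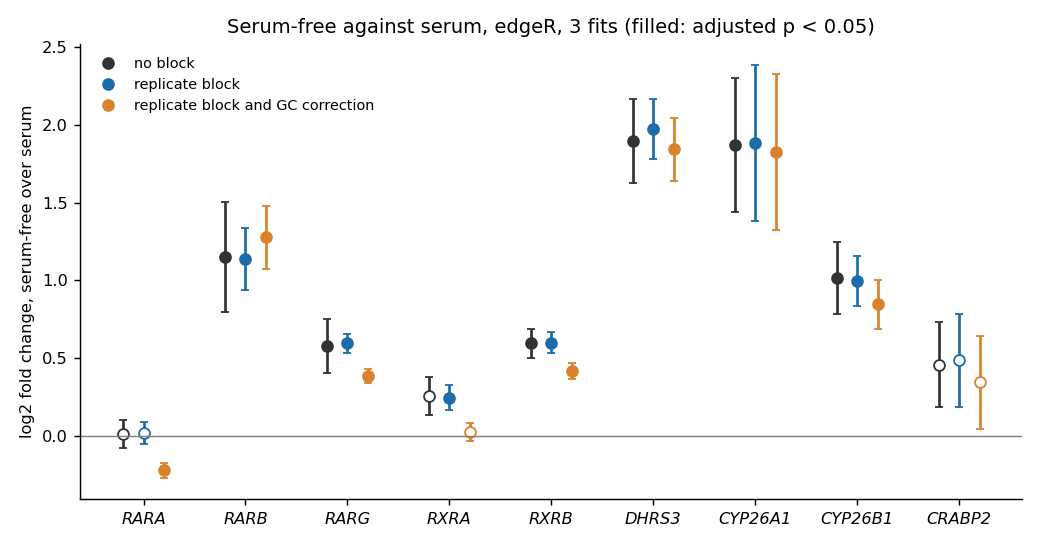
Log2 fold change of serum-free over serum for each gene (points) with its SE (bars) in 3 edgeR fits, without a block, with a replicate block by line, and with the block and a correction for GC content; filled points pass an adjusted p of 0.05. *DHRS3* and *CYP26A1* lie near 1.9 in each fit, and *RARA* is called only in the fit with the GC correction, where it lies below 0.

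Among the retinoic acid receptors, *RARB* and *RARG* rose and *RARA* did not pass the test. *RARB* (ENSG00000077092, chr3:24829321-25597932), itself a target of the acid, was at 1.11, 1.13, 2.29 and 1.06 CPM in WT1 to WT4 with serum and at 3.91, 1.95, 4.44 and 2.20 CPM without. WT3 with serum stood above the other 3 serum libraries and above the serum-free libraries of WT2 and WT4, so the conditions overlapped, although each line rose. The log2 fold change was 1.15 ± 0.35 (SE, edgeR's adjusted p = 0.0386), and the ratio was 3.51 (2.49 to 5.06) in WT1 and between 1.73 and 2.09 in the other 3 lines. This call was close to the threshold. It was lost in 8 of 12 unblocked fits that left out a line or library, at adjusted p up to 0.205. These were the fits without line WT1, WT2 or WT4, or without the serum library of WT1, WT2 or WT4. The others left out the serum-free library of WT1 or WT3. With all libraries, voom in limma also missed the threshold (adjusted p = 0.0558). Without the serum libraries of WT1 and WT2 the change was 0.87 (edgeR's adjusted p = 0.274). Blocking by line gave an adjusted p of 3.19e-04, and of up to 0.00548 with each line left out in turn (edgeR). The last bases of *RARB* overlap those of *TOP2B*, which had 4811 to 16961 counts per library, so part of its few reads may be uncertain.

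*RARG* (ENSG00000172819, chr12:53210569-53232209), the RAR best known from skin, was at 45.9, 41.6, 61.0 and 69.3 CPM with serum and at 75.8, 66.7, 88.0 and 94.5 CPM without. Each line rose, WT4 was highest in both conditions, and its serum library lay above the serum-free library of WT2. *RARG* changed by 0.58 ± 0.17 on the log2 scale (SE, edgeR's adjusted p = 0.0397). The call was lost in 9 of 12 unblocked fits that left out a line or library, at adjusted p up to 0.159. These left out line WT1, WT2 or WT3, the serum library of WT1, WT2 or WT3, or the serum-free library of WT1, WT3 or WT4. Without a filter on low counts the adjusted p was 0.0926. With the replicate block it was 4.11e-06, and with block and GC correction the change was 0.38 (adjusted p = 8.41e-06, all edgeR). The blocked call was kept with each line left out in turn, at edgeR's adjusted p of up to 4.32e-04. Without the serum libraries of WT1 and WT2, in a fit without a block, the log2 fold change was 0.31 and was not called (edgeR's adjusted p = 0.219). That fit keeps the higher serum libraries, WT3 and WT4 at 61.0 and 69.3 CPM, beside the serum-free libraries of every line.

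*RARA* (ENSG00000131759, chr17:40309180-40357643), the broadly expressed RAR, was at 32.5, 37.4, 39.7 and 41.4 CPM with serum and at 36.3, 38.8, 41.1 and 35.9 CPM without. The conditions overlapped almost fully, with WT1 to WT3 slightly higher and WT4 lower without serum. On the log2 scale the difference was 0.01 ± 0.09 (SE, edgeR's adjusted p = 0.939). With the block and the GC correction it was −0.22 and passed the test (edgeR's adjusted p = 0.00203), and without the serum libraries of WT1 and WT2 it was −0.10 (0.575). *RARA* has a GC content of 61.9%, against a median of 47.9% over 17425 tested genes, and 8 of the 9 genes were above that median. The antisense gene *RARA-AS1*, which lies within *RARA*, had 30 to 36 counts with serum and 57 to 120 without, and without a known strand setting its reads cannot be told from those of *RARA*.

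The retinoid X receptors are partners of the RARs and of several other nuclear receptors. *RXRB* (ENSG00000204231, chr6:33193588-33200853) was at 27.1, 26.8, 28.4 and 34.3 CPM with serum and at 42.8, 40.9, 46.6 and 45.8 CPM without. All serum-free libraries were above all serum libraries, with a spread of a few CPM within each condition. *RXRB* changed by 0.60 ± 0.09 on the log2 scale (SE, edgeR's adjusted p = 0.00262), and the ratio within a line ran from 1.34 in WT4 to 1.64 in WT3. Without the serum libraries of WT1 and WT2 the change was 0.49 (edgeR's adjusted p = 0.0450). *RXRB* and *DHRS3* were the only ones of the 9 that passed the test in each of 26 alternative analyses.

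*RXRA* (ENSG00000186350, chr9:134326455-134440585) was at 41.2, 51.5, 46.4 and 47.6 CPM with serum and at 56.3, 68.5, 52.0 and 45.7 CPM without. WT1 and WT2 were higher by ratios of 1.37 and 1.33 and WT3 by 1.12, whereas in WT4 the ratio was 0.959 with an interval of 0.898 to 1.02. The log2 fold change was 0.25 ± 0.12 (SE, edgeR's adjusted p = 0.155), and it passed with the replicate block (0.24, adjusted p = 0.0202) but not once GC content was corrected as well (0.03, adjusted p = 0.755). The blocked call was also lost without line WT1 (adjusted p = 0.156), WT2 (0.145) or WT3 (0.0783). Without the block, the change was 0.14 without the serum-free library of WT2 (0.393) and 0.24 without the serum libraries of WT1 and WT2 (edgeR's adjusted p = 0.368). *RXRG*, the third RXR and not one of the 9, was at 5.99, 7.93, 13.1 and 28.0 CPM with serum and at 12.9, 14.7, 28.0 and 55.1 CPM without. WT4 was highest and WT1 lowest in both conditions, the conditions overlapped, and each line was higher without serum by a ratio of 1.86 to 2.15. Its log2 fold change of 1.02 was called only with the block (edgeR's adjusted p = 0.278 without it and 2.88e-07 with it). Without the block, the value turned on WT4, at 0.44 without its serum-free library and 1.62 without its serum library (edgeR's adjusted p = 0.648 and 0.0848). It was 0.43 without the serum libraries of WT1 and WT2 (0.758).

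*CRABP2* (ENSG00000143320, chr1:156699606-156705784), which delivers the acid to the receptors, was scarce. It was at 0.875, 0.441, 0.701 and 0.634 CPM with serum and at 0.759, 0.838, 1.03 and 0.995 CPM without. WT1 was lower without serum and the other 3 lines were higher, and the conditions overlapped. On the log2 scale the difference was 0.46 ± 0.27 (SE, edgeR's adjusted p = 0.252), and only in WT2 did the counting interval of the ratio, 1.21 to 3.05, lie above 1. The change was 0.69 without line WT1 (edgeR's adjusted p = 0.202), 0.29 without the serum library of WT2 (0.50) and 0.43 without the serum libraries of WT1 and WT2 (0.444).

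**Figure D3:**
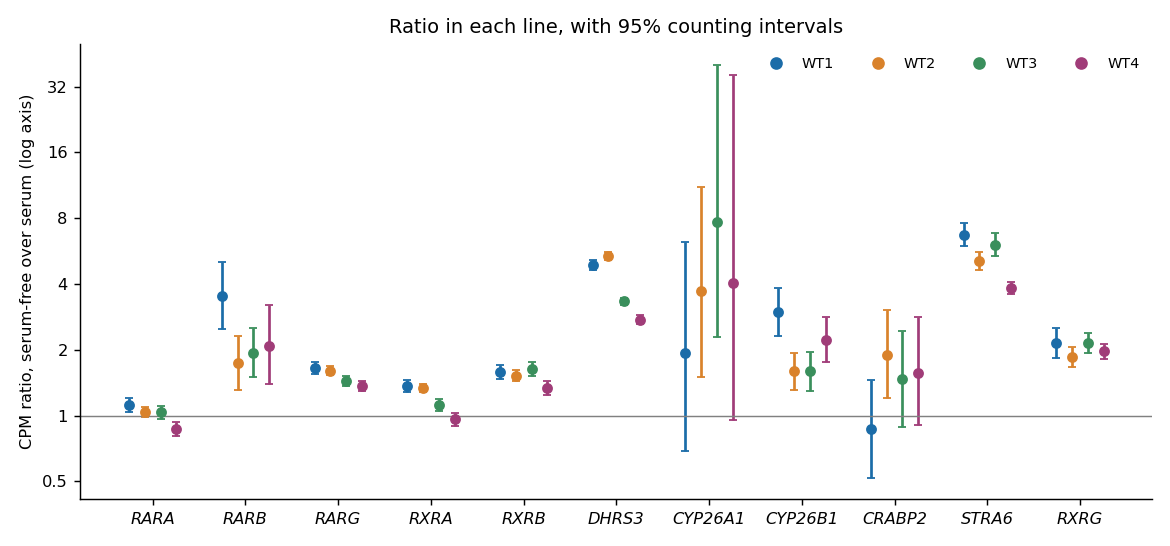
Ratio of serum-free to serum CPM in each of the 4 lines (log axis) with exact 95% counting intervals, for the 9 genes and for *STRA6* and *RXRG*. The 4 ratios of *DHRS3* lie between 2.75 and 5.39, those of *RARA* between 0.868 and 1.12, and the intervals of *CYP26A1* span more than a factor of 7.

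In a fit with condition and line, 2 of the 9 genes, *RARG* and *RARB*, differed between the 4 lines (edgeR's adjusted p = 3.58e-04 and 0.0192) and the other 7 did not pass, a share close to the 22.9% of all genes called. *RARG* was highest in WT4 and lowest in WT2, by a ratio of 1.54 between the line means. *RARB* was highest in WT3 and lowest in WT2, by a ratio of 2.15, and without WT3 only *RARG* remained called. *DHRS3* was 1.64 times as high in WT3 as in WT2, which did not pass the test (edgeR's adjusted p = 0.243). Without WT2 *DHRS3* was called as well, and without WT4 *RXRA* was, each making 3 genes.

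Levels of different genes were compared as RPKM, which divides CPM by gene length in kilobases, here the merged length of all exons. The longest transcript's length kept the order of the means but gave higher levels, with serum 28.1 RPKM for *DHRS3*, 18.7 for *RARG*, 8.09 for *RXRA* and 0.285 for *RARB*. It also changed which neighbours overlap, as given beside them. With serum the order was *DHRS3* at 17.6 ± 6.85 RPKM (SD, n = 4), *RARG* at 10.6 ± 2.53, *RARA* at 7.95 ± 0.815, *RXRB* at 7.48 ± 0.894 and *RXRA* at 3.87 ± 0.350. Then came *CRABP2* at 0.613 ± 0.166 RPKM (SD, n = 4), *CYP26B1* at 0.599 ± 0.146, *RARB* at 0.148 ± 0.0632 and *CYP26A1* at 0.0330 ± 0.0142. In this order the libraries of *DHRS3* and *RARG*, of *RARG* and *RARA*, of *RARA* and *RXRB*, and of *CRABP2* and *CYP26B1* overlapped in level, and the other neighbours did not. With the longest transcript's length *RARG* and *RARA* did not overlap. The top 5 genes were above the median of 17425 expressed genes, 2.75 RPKM, and the other 4 below it.

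Without serum *DHRS3* stood apart at 65.6 ± 7.70 RPKM (SD, n = 4), and its rank among expressed genes went from 2663 to 499. *RARG* followed at 15.8 ± 2.42 RPKM, *RXRB* at 11.3 ± 0.675, *RARA* at 8.02 ± 0.510 and *RXRA* at 4.61 ± 0.799, with no overlap between neighbours for the merged exon length. With the longest transcript's length *RARA* (10.96 to 12.55 RPKM) and *RXRA* (7.91 to 11.9) overlapped, as did *CRABP2* (0.734 to 0.995) and *RARB* (0.398 to 0.908). *CYP26B1* at 1.21 ± 0.280 and *CRABP2* at 0.836 ± 0.118 RPKM again overlapped, and *RARB* at 0.331 ± 0.131 and *CYP26A1* at 0.124 ± 0.0393 RPKM (SD, n = 4) remained the lowest. The makeup of the RAR family moved with these changes. *RARG* made up 56.3% ± 4.32 of summed RAR RPKM with serum and 65.3% ± 3.88 without (SD, n = 4), *RARA* 42.9% ± 4.31 and 33.4% ± 3.84, and *RARB* 0.791% ± 0.284 and 1.36% ± 0.506. The ratio of *RARG* to *RARA* ran from 1.03 to 1.55 with serum and from 1.59 to 2.43 without, so the conditions did not overlap, a comparison chosen after its values were seen and given without a test.

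**Figure D4:**
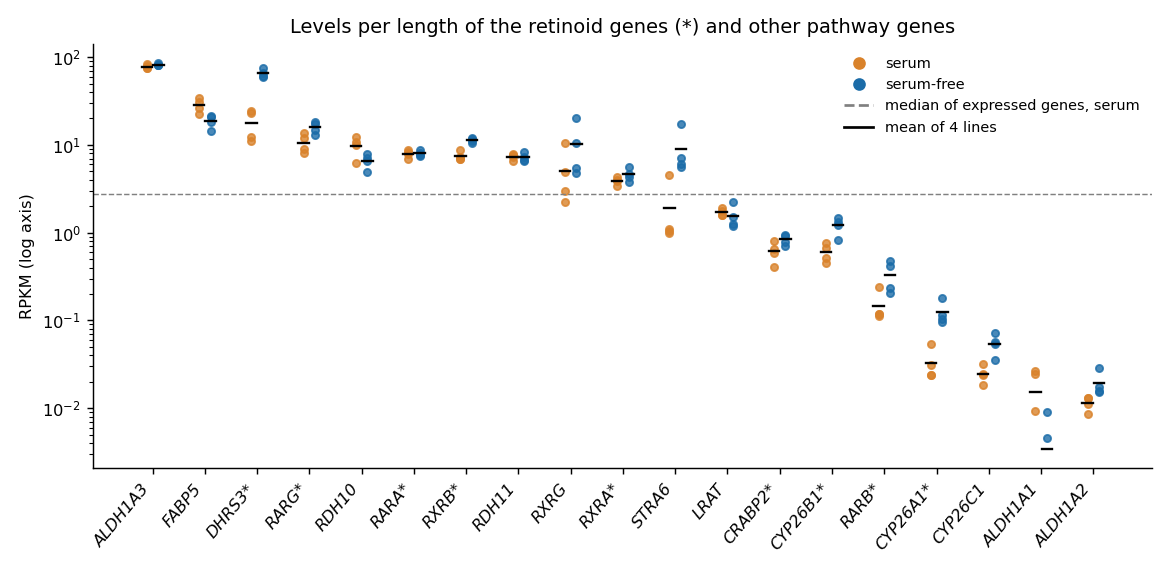
RPKM (log axis) of the 9 genes (asterisks) and 10 other genes of the pathway in each library, with serum and without it, with the mean of 4 lines as a black bar and the median of expressed genes with serum as a dashed line; libraries at 0 are not drawn. *DHRS3* moves from 17.6 to 65.6 RPKM, toward *ALDH1A3* near 80, while *RARB* and *CYP26A1* stay far below the median in both conditions.

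Receptor heterodimers bind repeats of a hexamer, classically spaced by 5 bases, so RefSeq promoters (GRCh38.p14, 250 bases before to 50 after a start site) were searched on both strands for 2 hexamers in the same direction, each of them AGGTCA, its variant AGTTCA, the form GGGTCA or else the form GGTTCA, with 5 bases between them. All 9 genes matched the table, with 19 promoters. A repeat was found in 1 promoter each of *RARB* and *CYP26A1*, 2 genes that rose without serum, and in 0.0883% of all 35116 promoters (31). The sequences are shown because both genes are classic direct targets, with the repeat in capitals from its first to its last base, spacer included.
*RARB*, chr3:25428204-25428232, plus strand: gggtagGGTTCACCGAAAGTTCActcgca
*CYP26A1*, chr10:93073797-93073825, plus strand: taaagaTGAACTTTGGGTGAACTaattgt
In *RARB* the repeat lies 53 to 37 bases before a start site inside the gene's span, and reads in the direction of the gene. In *CYP26A1* it lies 90 to 74 bases before the second of 2 start sites and reads on the opposite strand, as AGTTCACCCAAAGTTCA. Spacings of 1 and 2 bases gave no match in the 9 genes and matches in 0.131% and 0.0399% of all promoters. A match is a description of the letters in this window and no evidence of binding, and binding was not measured here.

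Of 77 other genes of the pathway, in lists chosen with earlier results of these data known, 52 had enough counts to be tested, and 10 were higher and 3 lower without serum, beside 11.1% and 14.0% of all genes. Their median log2 fold change was 0.18. With the replicate block 21 were higher and 10 lower, beside 23.2% and 22.4% of all genes.

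Of the 12 genes of retinol uptake, binding and esterification, 5 were tested, 1 was higher and 1 lower, beside 11.1% and 14.0% of all genes. *STRA6*, the membrane receptor that takes up retinol and a target of the acid, was at 8.0, 8.34, 7.69 and 34.5 CPM in WT1 to WT4 with serum and at 53.8, 42.4, 46.4 and 132.2 CPM without. WT4 was far above the other lines in both conditions, yet all serum-free libraries were above all serum libraries. The log2 fold change was 2.25 ± 0.65 (SE, edgeR's adjusted p = 0.0404), in this fit larger in size than that of any of the 9 genes. Without the serum-free library of WT4 it was 1.71, below *DHRS3* at 1.90 and *CYP26A1* at 1.98. The ratio of *STRA6* within a line ran from 3.83 in WT4 to 6.72 in WT1. The call was lost in 10 of 12 unblocked fits that left out a line or library, at adjusted p up to 0.166. It was kept only without line WT4 or its serum library. It was also lost without a filter on low counts (0.118). With the block the adjusted p was 1.76e-08, and at most 1.09e-05 with each line left out in turn (edgeR). *CCDC33*, which overlaps *STRA6*, had 222 counts in WT4 without serum and 2 to 22 in the other libraries.

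*FABP5*, a carrier of fatty acids and retinoic acid, was at 43.2 to 64.8 CPM with serum and at 27.2 to 40.9 CPM without, with a log2 change of −0.60 (adjusted p = 0.0211, edgeR). In fits without a block, the call was lost without line WT1, WT2 or WT3 and without the serum library of WT1 or WT2. It was also lost without the serum-free library of WT3, at adjusted p of up to 0.0866 over these fits (edgeR). Without the serum libraries of WT1 and WT2 the change was −0.39 (0.189). Blocking by line gave an adjusted p of 3.36e-06, and of up to 2.17e-04 with each line left out in turn (edgeR). *FABP5* has near-identical pseudogenes, whose share of its reads was not tested. *LRAT*, which esterifies retinol, did not pass (−0.15, edgeR's adjusted p = 0.615). Its value moved with several libraries. Without line WT4 it was −0.41 and passed (edgeR's adjusted p = 0.0355), and it was −0.38 without the serum-free library of WT4 alone (0.0664). It was −0.05 without line WT1 (0.916) or the serum-free library of WT3 (0.887), and −0.06 without that of WT1 (0.859). The cellular binding protein *CRABP1* had at most 2 counts in a library and was not tested.

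None of the 7 tested of 18 genes of retinoic acid synthesis passed the test, beside 11.1% of all genes higher and 14.0% lower. *ALDH1A3*, which makes the acid from retinaldehyde, was at 416.0 ± 21.0 CPM with serum and 438.6 ± 10.6 without (SD, n = 4), with a log2 change of 0.08 ± 0.06 (SE, adjusted p = 0.372, edgeR). Its relatives *ALDH1A1* and *ALDH1A2* had at most 5 and 18 counts in a library and were not tested. *RDH10*, which oxidizes retinol to retinaldehyde, the step that DHRS3 reverses, was at 53.0, 32.8, 57.4 and 64.8 CPM with serum and at 37.8, 26.2, 35.0 and 42.0 CPM without. Each line was lower without serum, and the log2 fold change of −0.56 did not pass in edgeR without the block (adjusted p = 0.0946). It passed with the block (2.49e-05) and with DESeq2 (0.0242), and in edgeR without line WT2 (0.0222), without the serum library of WT2 (0.0148) and without the serum libraries of WT1 and WT2 (−0.80, adjusted p = 0.0406). The RPKM ratio of *DHRS3* to *RDH10* was between 1.25 and 2.13 with serum and between 8.39 and 12.1 without, a description chosen after its values were seen. *RDH11* was at −0.02 (edgeR's adjusted p = 0.888).

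Among 21 target genes of retinoic acid, a list that includes *STRA6*, 17 were tested. Of these 3 were higher and 0 lower, beside 11.1% and 14.0% of all genes. With the block 6 were higher and 2 lower, beside 23.2% and 22.4% of all genes. *HOXA5*, a homeobox factor, was higher by 0.96 on the log2 scale (edgeR's adjusted p = 0.0138) and *NRIP1*, a corepressor of nuclear receptors, by 0.51 (0.00593). Other classic targets did not pass, with *TGM2* at −0.32 (edgeR's adjusted p = 0.605), *RARRES1* at −0.41 (0.652) and *PLAAT4* at 1.21 with 0 to 32 counts in a library (0.236). Without the block *TGM2* was at −0.65 without the serum-free library of WT1 and at −0.06 without its serum library (edgeR's adjusted p = 0.278 and 0.943). It was called lower with the block (edgeR's adjusted p = 0.00303). *RARRES2* had 0 counts in each library.

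All 13 receptor corepressors and coactivators were tested, 4 were higher and 2 lower, beside 11.1% and 14.0% of all genes. The corepressor *NCOR1* was at −0.02 (edgeR's adjusted p = 0.851). *TBL1X*, a subunit of the corepressor complexes, fell by 0.99 (0.0115) and the Mediator subunit *MED1* fell by 0.20 (0.0256). The coactivator *NCOA3* was higher by 0.38 (adjusted p = 0.0102, edgeR). Among the 13 genes for other partners of RXR, 11 were tested, 3 were higher and 0 lower, beside the same shares of all genes. The 3 were the oxysterol receptor *NR1H3*, by 0.87 (edgeR's adjusted p = 0.00284), the vitamin D receptor *VDR*, by 0.37 (0.0360), and the fatty acid receptor *PPARA*, by 0.39 (0.0375). Without the serum libraries of WT1 and WT2, 2 of the other pathway genes were called, *NR1H3* higher and *RDH10* lower. *NR1H3* passed in each alternative run. Leaving out 1 line or library ended the calls of *MED1*, *VDR* and *PPARA* (adjusted p of up to 0.147, 0.155 and 0.163, each without line WT1), of *NCOA3* without WT1 or WT2 (0.0657 and 0.0648), of *NRIP1* without WT1 (0.0533) and of *HOXA5* without WT1 or WT3 (0.0544 and 0.0952), all in edgeR without a block. With all libraries, *MED1* was also lost with upper-quartile scaling (0.0874) and without a filter on low counts (0.0870), and *PPARA* without that filter (0.0515). With the block, leaving out a line ended only the call of *MED1* among these genes, without WT1 (edgeR's adjusted p = 0.0512).

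**Figure D5:**
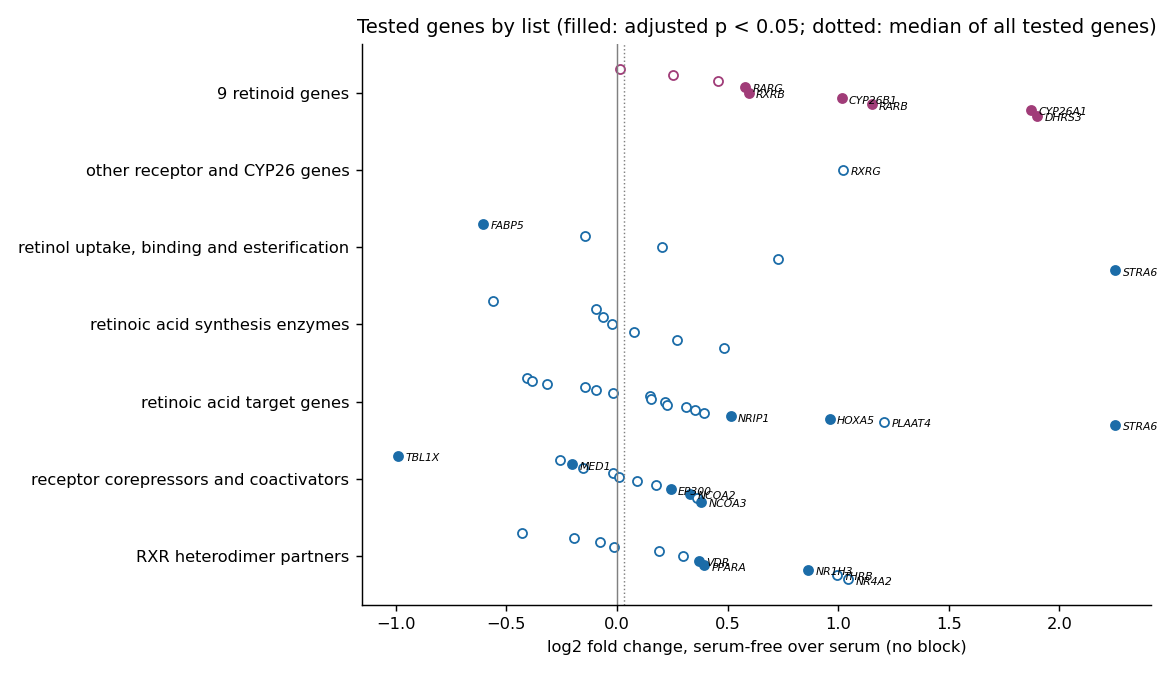
Log2 fold change of serum-free over serum (x axis, fit without a block) of the tested genes reported in each list (rows), with filled points for an adjusted p below 0.05 and a dotted line at the median of all tested genes, 0.03. The 9 genes all lie at or above 0, whereas the synthesis enzymes lie on both sides of it with none called.

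The genes whose pattern over the 8 libraries was most like that of *DHRS3*, out of 11531 protein-coding genes averaging 100 or more counts a library, were *PRMT2* (Pearson's r of log2 CPM 0.993), *CCDC102A* (0.992), *OSBPL5* (0.991), *IFT140* (0.990) and *COQ8A* (0.989). Of the other members in that set, *RXRB* came closest at 0.97, followed by *CYP26B1* and *RARG* at 0.92. These values describe 8 libraries that share a condition and a line and have no test. For deviations from the condition means, which leave out the response to serum, the nearest were *SIPA1* (0.992), *FOXD3* (0.980) and *CCDC102A* (0.978), with *RARG* at 0.90 and *RXRB* at 0.77.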

How the data were processed

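RNA from 4 A375 lines with and without serum was sequenced as ribosomal RNA-depleted total RNA, 1 library per line and condition. The values the authors deposited are raw counts of reads per gene, whole numbers made with HTSeq on GRCh38 after cutadapt and TopHat2 2.0.11 per the labels, not normalized. The strand setting and annotation release are not given in the sources used here. Rows naming no gene, of which only those for ambiguous and multiply aligned reads were above 0, held 16.1% to 31.0% of all rows' counts and were left out of library sizes and tests. The deposited counts of WT4 carry another name, so its identity rests on the labels.

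The 9 genes and all lists were chosen with earlier results of these data known. All 9 are named, with, from each other list, up to 4 genes past the threshold by smallest p and a fixed set (*RXRG*, *CYP26C1*, *STRA6*, *LRAT*, *CRABP1*, *FABP5*, *RDH10*, *RDH11*, *ALDH1A1* to *ALDH1A3*, *TGM2*, *RARRES1*, *RARRES2*, *PLAAT4*, *NRIP1*, *NCOR1*); *NR1H3*, *VDR*, *PPARA*, *NCOA3*, *TBL1X* and *MED1* entered by p. Of the fixed set, 2 genes are not reported here, though counts over their lists include them. A gene with fewer than 10 counts in a library was called low-count.

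The test was edgeR's (version 4.0.16, R 4.3.3) glmQLFTest after a robust glmQLFit, with filterByExpr as the filter and TMM as the scaling, over 17671 genes, serum-free against serum, without a block. Same-line libraries deviated together from their condition means (r = 0.40, 0.59, 0.46 and 0.60, against at most 0.13 between lines), so the line number pairs them. Without the block, p-values weigh a change against the spread between 4 clones of 1 parental line. With the block they weigh it against the spread of the change within lines between these clones. Alternatives were the replicate block, DESeq2 1.42.0, voom in limma 3.58.1, RLE and upper-quartile scaling, other filters, protein-coding genes only, left-out libraries and lines, and a GC correction with the block. Lengths (merged exons, or the longest transcript as an alternative) and GC content (known for 98.6% of tested genes) were taken from GENCODE models on GRCh37, and positions and promoters from RefSeq, GRCh38.p14. Counting intervals are exact, at 95%, and cover counting error only. The tests were checked on simulated data.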

Additional observations from a re-analysis of the deposited data

Results flagged for a closer look

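Of 59 sets of 4 values searched, 5 held a library far from the other 3, where chance alone flags about 1 in 20, or 2.95. *RARB* with serum was at 2.29 CPM in WT3 and between 1.06 and 1.13 CPM in the other lines. *STRA6* in WT4 was at 34.5 CPM with serum, against 7.69 to 8.34 in the other lines, and at 132.2 CPM without serum, against 42.4 to 53.8. *ALDH1A2* without serum was at 0.236 CPM in WT2, from few counts, and *ALDH1A3* without serum was at 454.3 CPM in WT3 against 431.7 to 435.1 in the others, a small difference beside its level.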

How the results depend on the processing

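The count of 6 of the 9 genes stayed within 1.5 times in most alternatives but fell to 3 without line 1 or line 2 and, over all fits that left out a line or a library, ran from 3 to 7. It was 2, *DHRS3* and *RXRB*, without the serum libraries of lines 1 and 2. The replicate block added *RXRA* and changed no other call among the 9. With block and GC correction *RXRA* was not called and *RARA* was called lower. The 13 other pathway genes became 31 with the block, 28 with block and GC correction, 2 without the serum libraries of lines 1 and 2, 2 to 18 over left-out libraries and lines, and 22, 25, 26 and 36 with the block and without line 1, 2, 3 or 4. All genes called went from 4434 to 8067, 8092 and 1098 under the same 3 alternatives, ran from 1589 to 6128 over left-out libraries and lines, and reached 8938 with the block and without line 4. Upper-quartile scaling turned 1957 higher and 2477 lower into 2508 and 1843. Line differences went from 2 genes to 1 without line 3 and to 3 without line 2 (*DHRS3* added) or line 4 (*RXRA* added), and the promoter matches from 2 to 1 (*CYP26A1*) with AGGTCA and AGTTCA alone. Directions turned for the genes that follow. *RARA* was at −0.0058 with DESeq2, −0.22 with block and GC correction, −0.10 without the serum libraries of lines 1 and 2, and −0.0551 to 0.0855 over left-out libraries and lines, with −0.0323 and −0.0074 with the block and without line 1 or 3. *RDH11* turned to 0.0409 with the GC correction, 0.0425 with upper-quartile scaling and 0.0066 with the block and without line 1, and ran from −0.101 to 0.0214 over left-out libraries and lines, and *NCOR1* to 0.0042 with protein-coding genes only, 0.0082 with the GC correction and 0.0468 with upper-quartile scaling. *TGM2* turned to 0.15 without the serum libraries of lines 1 and 2, its highest with serum at 156.4 and 110.9 CPM. The serum-free libraries of these lines stayed in that fit. Within each of the 4 lines *TGM2* was lower without serum, and every blocked fit gave a value below 0, from −0.50 to −0.24. *RARRES1* ran from −0.741 to 0.156 over left-out libraries and lines (0.128 with the block and without line 3). The cause was not tested. *CYP26A1*, at 2 to 26 counts, is limited by depth.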
